A study of Mus musculus with 36 samples.

Results

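The transcripts described here are those of 48 genes of the cell cycle and DNA replication, out of 45706 genes counted in mouse CD4 T cells. The genes were chosen by name and found through the GENCODE vM21 symbols of the Ensembl identifiers. They were split into 19 S-phase and 29 mitotic genes. Most of the first supply or switch on DNA synthesis, and most of the second act in G2 and mitosis. Mybl2, whose product also acts on genes of G2 and mitosis, was placed in the first list. Ccna2, a cyclin of S phase and G2, was placed in the second. All 48 had a counted row.

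The series measured RNA by stranded total RNA-seq in 36 libraries of CD4 T cells from wild-type C57BL/6J mice (WT) and from mice of the strain C57BL/6J-Ets1-SE-KO (KO), whose name gives a knockout of the super-enhancer (SE) at Ets1. No label states the animals' ages or where the deletion starts and ends. Naive CD4 T cells were taken from spleen by negative selection on beads, and were sequenced directly as 2 WT and 2 KO libraries. A first experiment held 3 libraries each of WT and KO Th1 cells and of WT and KO Th2 cells. Th1 cells had been cultured for 6 days on plates coated with anti-CD3, with anti-CD28, IL-12 at 10 ng/mL and IL-2 at 1 ng/mL; no label describes the Th2 culture. A second experiment held Th1 cells that were left untransduced (WT and KO, 2 libraries each) or carried a retrovirus: WT cells with the empty virus (EV) and KO cells with a virus encoding Ets1 (Ets1-RV), 4 libraries each. These 4 are 2 libraries of each of 2 numbered sets, B1 and B2 in the titles, whose meaning no label states, and were summed within a set, so that n = 2 in every group of the second experiment. In 8 further transduced libraries the title and the treatment label name opposite viruses. They entered no group and no test, and only their single values are given. All naive and first-experiment libraries carry the same number, B1, and differ only in a second number, T, which is the number summed over in the second experiment. Each of those groups may therefore hold repeats of 1 biological sample, and its p-values, like those of contrasts with it, may be too small. No label says that libraries of a group came from separate animals or cultures, so each p-value reflects library-to-library spread, and this may be technical only.

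Resting naive T cells sit outside the cell cycle and enter it after stimulation through the T cell receptor and CD28. Cyclin E and E2F factors switch on the genes of DNA synthesis, among them the MCM helicase, PCNA and the enzymes that make deoxynucleotides. Genes of G2 and mitosis follow under control of the DREAM and MuvB complexes, MYBL2 and FOXM1, and their transcripts are among the most used markers of dividing cells. ETS1 is a transcription factor of resting and activated lymphocytes. In bulk RNA, fewer dividing cells and less of a transcript per cell cannot be told apart.

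A motif that goes with this split was in most of the mitotic promoters matched and in a minority of the S-phase promoters matched. RefSeq promoter sequences (GRCm38.p6, 250 bases before to 50 after the transcript start) were matched for 40 of the 48 genes, and were searched on both strands. The CHR motif, TTTGAA, to which the DREAM and MuvB complexes bind, was in 19 of 24 mitotic promoters (79.2%) and in 3 of 16 S-phase promoters (18.8%), against 20.2% of the promoters of 27025 genes. An E2F motif (TTTGGCGC, TTTCCCGC, TTTCGCGC or TTTGCCGC) was in 6 of 16 S-phase promoters (37.5%) and in 1 of 24 mitotic promoters (4.17%), against 2.61% of all. The CCAAT box was in 62.5% of S-phase and 91.7% of mitotic promoters, against 41.1% of all. The ETS motif CCGGAAGT was in 1 S-phase and 2 mitotic promoters, against 4.31% of all. A match is only a match of letters. The first 4 sequences are of mitotic genes whose RNA was lower in KO cells of the second experiment, and show 1 CHR motif each in capitals, within 30 bases of the start. Of the other mitotic genes called lower there, Cdca8 and Cenpf had the motif and Birc5 and Ccnb1 did not. Ccna2 and Foxm1 had no promoter sequence. The part of the motif in the KO difference was not tested. The last 3 sequences are of S-phase genes of replication licensing and show in capitals the E2F motif, on either strand, where in Mcm5 and Mcm6 matches on opposite strands overlap. Of these only Cdc6 was called lower in those KO cells, and Rrm2, the other S-phase gene called, had no E2F motif.
Top2a, chr11:99024190-99024289, minus strand: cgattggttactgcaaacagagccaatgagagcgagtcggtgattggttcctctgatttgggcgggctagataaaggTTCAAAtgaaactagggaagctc
Kif11, chr19:37376282-37376381, plus strand: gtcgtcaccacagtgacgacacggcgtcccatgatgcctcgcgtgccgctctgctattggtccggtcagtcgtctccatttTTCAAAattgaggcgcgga
Hmgb2, chr8:57511743-57511842, plus strand: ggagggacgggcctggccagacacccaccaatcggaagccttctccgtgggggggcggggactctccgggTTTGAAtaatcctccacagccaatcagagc
Ckap2l, chr2:129297213-129297312, minus strand: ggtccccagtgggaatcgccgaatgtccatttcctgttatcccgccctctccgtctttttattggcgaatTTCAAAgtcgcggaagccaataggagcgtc
Cdc6, chr11:98907981-98908150, plus strand: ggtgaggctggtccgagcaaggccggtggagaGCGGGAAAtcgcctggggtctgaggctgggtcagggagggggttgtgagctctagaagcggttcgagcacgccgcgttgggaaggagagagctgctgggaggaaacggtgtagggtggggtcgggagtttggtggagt
Mcm5, chr8:75109339-75109508, plus strand: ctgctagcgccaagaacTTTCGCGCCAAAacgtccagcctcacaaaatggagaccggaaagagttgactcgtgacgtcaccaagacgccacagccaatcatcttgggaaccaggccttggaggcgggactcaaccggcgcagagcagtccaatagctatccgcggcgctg
Mcm6, chr1:128359706-128359875, minus strand: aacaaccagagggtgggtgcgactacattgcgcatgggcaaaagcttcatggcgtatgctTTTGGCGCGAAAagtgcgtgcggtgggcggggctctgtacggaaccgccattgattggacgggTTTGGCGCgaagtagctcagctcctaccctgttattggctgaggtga

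Depth set the precision of what follows. Gene counts per library ran from 5069623 to 5852673 in naive cells, from 7311614 to 10256407 in the first experiment and from 1813288 to 6844944 among the untransduced and transduced libraries compared. The shallowest was the untransduced KO library of set B2. As a check of the labels, the noncoding gene Gm27162, which lies on the same chromosome near Ets1, had 0 counts in every library placed in a KO group and 8 to 53 counts in every library placed in a WT group. In the 8 libraries placed in no group, Gm27162 went against the genotype in the title, with values given at the end. Ets1 itself was at 1807 to 1813 CPM (a gene's count scaled to a common total of gene counts per library) in naive WT and 706 to 709 in naive KO cells. In untransduced Th1 cells it was at 373 to 411 CPM in WT and 214 to 239 in KO, and at 384 to 469 with Ets1-RV. Xist RNA was at 466 to 498 CPM in both naive WT libraries and at 0 in both naive KO libraries, while it was present in all 12 libraries of the first experiment and in set B2, and near 0 in set B1 of both genotypes. The naive comparison of genotypes therefore sets cells with Xist against cells without it.

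Cell cycle transcripts were low in naive cells and higher in every culture, and mitotic transcripts were higher in the first experiment than in the second. Each library was given a score, the mean of log2(CPM + 0.5) over the genes. The S-phase score averaged 3.75 in naive WT, 6.22 in WT Th1 cells of the first experiment and 5.70 in untransduced WT Th1 cells of the second. The mitotic score averaged 2.19, 6.82 and 5.26 in the same groups. The 10 most abundant genes took 23.2% to 27.9% of gene counts in the first experiment and 37.6% to 47.8% in the second, which lowers the CPM of all other genes there. On TMM-scaled CPM the S-phase score was 5.96 ± 0.15 (SD, n = 3) in the first and 5.86 ± 0.12 (SD, n = 2) in the second experiment, closer than the spread between libraries, and the mitotic score was 6.55 ± 0.06 and 5.42 ± 0.04. Mitotic minus S-phase score was positive in all 12 libraries of the first experiment (0.53 to 0.83) and negative in all labelled libraries of the second (-0.68 to -0.26). On plain CPM, KO and WT groups stood close in the first experiment, at mitotic scores of 6.91 and 6.82 for Th1 and 6.77 and 6.58 for Th2. In the second, untransduced KO cells stood at 4.46 against 5.26 in WT, and KO cells with Ets1-RV at 5.23 against 5.42 in WT with empty virus.

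**Figure D1:**
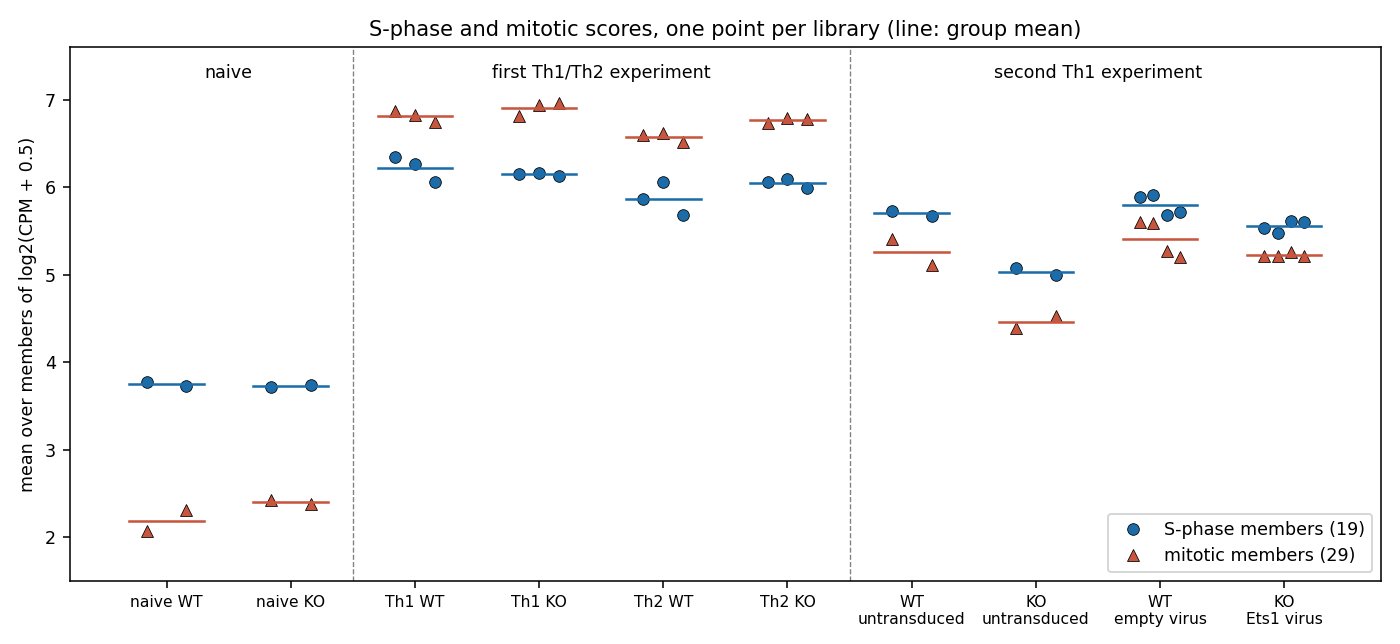
Scores of the 19 S-phase genes (circles) and the 29 mitotic genes (triangles) in each labelled library, as the mean of log2(CPM + 0.5), with a line at each group mean. The triangles lie above the circles in the first experiment and below them in naive cells and in the second experiment, and untransduced KO cells lie lowest among the cultured groups.

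From naive to Th1 cells, the cell cycle genes rose in WT. At an adjusted p under 0.05 (edgeR's quasi-likelihood test, Benjamini-Hochberg adjustment over all genes tested), 48 of 48 were higher, while 40.0% of all genes tested were called higher. E2f2, the smallest, lost its call under RLE scaling (adjusted p = 0.0866), in DESeq2 (adjusted p = 0.153), without naive WT replicate 2 (adjusted p = 0.138) and without WT Th1 replicate 1 (adjusted p = 0.103), which left 47. The median log2 fold change was 4.86 over the mitotic genes, 2.48 over the S-phase genes and 0.10 over all genes tested. Among mitotic genes the change was widest for Hmmr, a spindle-associated hyaluronan receptor, at a log2 fold change of 7.07 ± 0.20 (SE; adjusted p = 1.01e-20), from 0.975 ± 0.878 (SD, n = 2) to 133 ± 1.60 CPM (SD, n = 3). Hmmr had only 2 and 9 reads in the naive WT libraries, so this standard error may be too small. Top2a, the topoisomerase that untangles sister chromosomes, went from 46.0 ± 0.916 (n = 2) to 992 ± 19.8 CPM (n = 3), a log2 fold change of 4.43 ± 0.09. Bub1, a spindle checkpoint kinase, and Ccnb1, the cyclin that drives entry into mitosis, rose by 6.54 and 6.02 on the log2 scale. Aurkb (5.77), Ube2c (5.73), Ccna2 (5.43), Cdk1 (5.08), Plk1 (4.67), the proliferation marker Mki67 (3.97) and the factor Foxm1 (2.85) also rose.

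The S-phase genes rose by less at the median, and a few of them by little. Rrm2, the regulated subunit of ribonucleotide reductase, rose most among them, by 4.44 ± 0.29 on the log2 scale (adjusted p = 3.15e-13), from 5.04 ± 2.62 (SD, n = 2) to 110 ± 21.5 CPM (SD, n = 3). It was followed by Tk1 (4.32), a thymidine kinase, Cdc45 (4.06), Mybl2 (3.99) and Gins2 (3.61), with Ccne1 at 2.90, Ccne2 at 2.49, Cdc6 at 2.48, Mcm5 at 2.30 and E2f1 at 2.16. At the other end were E2f2 at 0.26 ± 0.11 (adjusted p = 0.031), Mcm2 at 0.89 ± 0.13 and Mcm4 at 0.93. The sliding clamp Pcna rose from 66.8 ± 2.505 (n = 2) to 148 ± 8.27 CPM (n = 3), by 1.15 ± 0.12 on the log2 scale. Th2 cells gave 48 of 48 higher as well, with 40.2% of all genes tested called higher, and medians of 4.64 (mitotic) and 2.13 (S-phase). Both contrasts use the same naive libraries. Culture, activation and a separate library preparation cannot be told apart here. Genes of other kinds moved with the rise: 6 of 6 handling-stress genes were lower in Th1 and in Th2 than in naive cells (summed level 2308 to 2317 CPM in naive WT, 125 to 146 in Th1 and 128 to 155 in Th2). Erythroid genes went from 21.2 to 21.7 CPM in naive cells to at most 0.195 in Th1, with 4 of 5 at 0, and at most 0.272 in Th2. Myeloid genes went from 13.2 to 16.1 CPM to at most 0.780 in Th1 and 1.90 in Th2, and naive T cell genes from 3765 to 3821 CPM to 594 to 694 in Th1. Their part in the rise was not tested.

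**Figure D2:**
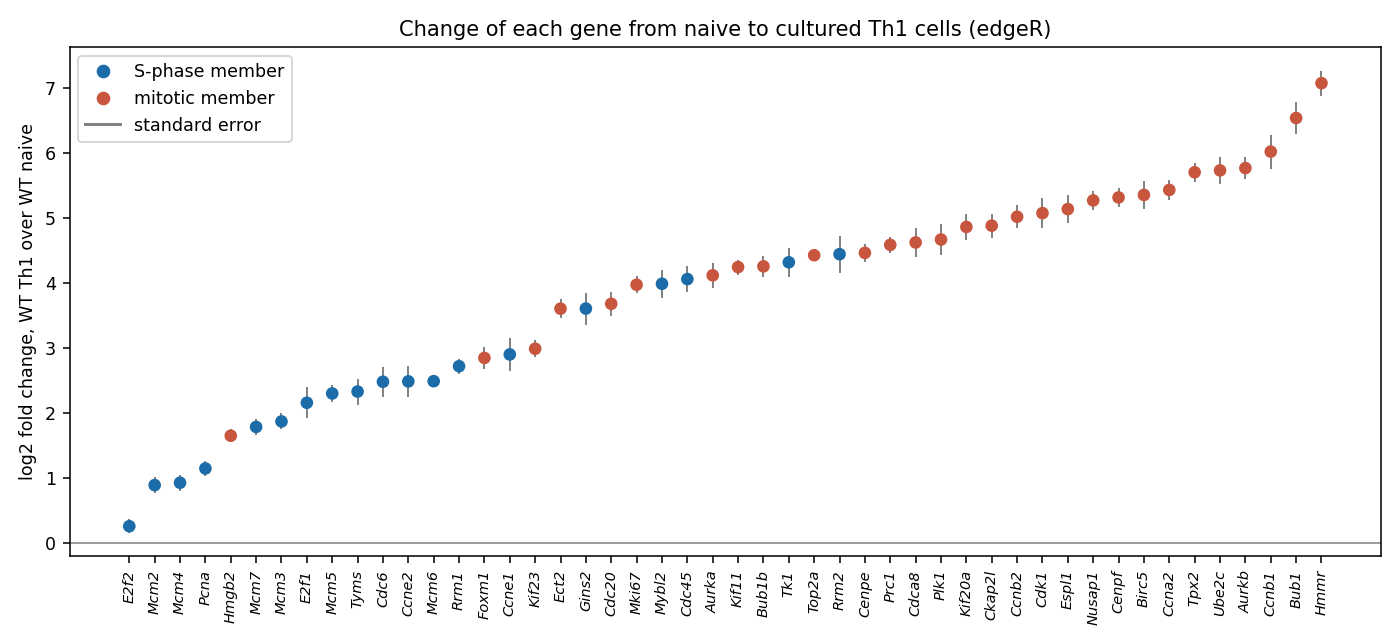
Log2 fold change from naive WT to Th1 WT cells for each of the 48 genes, in rising order, with standard errors worked back from the test. Most S-phase genes lie at the low end, from E2f2 at 0.26, and mitotic genes at the high end, up to Hmmr at 7.07.

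Other lists of cycle genes moved at the same time. All 10 genes of the list of G1 cyclins, kinases and Myc rose, among them Mycn (7.09), Cks1b (4.09), Cdk6 (2.95) and Myc (1.54), as did all 30 other genes of replication and repair. Of 40 other mitotic genes 38 rose and 1 fell. Inhibitors of cyclin-dependent kinases and genes of quiescence went both ways, with 7 higher and 9 lower of 18, where 36.1% of all genes tested were called lower: Cdkn1a rose by 7.48 and Cdkn2a by 6.95 on the log2 scale, while Klf2, a quiescence factor, fell by 7.66 and Btg1 fell by 2.87.

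In naive cells the KO left most of the genes near their WT level. Of the 45 genes that passed the filter on low counts, 3 were called, while 17.7% of all genes tested were called in either direction. Ccnb1, Bub1 and Aurkb were too low to test. Pcna had 66.9 and 63.2 CPM in WT and 76.8 and 97.7 in KO, higher by 0.43 ± 0.10 (SE) on the log2 scale (adjusted p = 0.000617). Kif23, a kinesin of the central spindle, had 8.79 and 10.5 CPM in WT and 13.02 and 17.4 in KO, higher by 0.66 ± 0.24 (adjusted p = 0.0327). Mcm2, a helicase subunit, had 87.9 and 96.2 CPM in WT and 72.1 and 78.9 in KO, and fell by 0.28 ± 0.10 (adjusted p = 0.0287). In each of the 3 the groups did not overlap. The widest differences belonged to genes at a few CPM, Hmmr at 1.53 ± 0.60 (adjusted p = 0.0616) and Cdc6 at -0.97 ± 0.39 (adjusted p = 0.0738). The 12 other anchor genes tested, genes named in each comparison such as Mki67 (-0.06), Top2a (0.15) and Foxm1 (0.21), ran from Rrm2 at -0.28 to E2f1 at 0.60 and did not pass. The median was 0.07 over the genes and 0.00 over all genes tested.

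Other lists are read against the 8.75% of all genes called higher and the 8.92% called lower in naive KO cells. Of 16 inhibitors and quiescence genes tested 7 were higher in KO and 2 lower: Rbl1, a pocket protein that represses E2F targets, was higher by 0.76 ± 0.11 (adjusted p = 1.36e-09) and the kinase inhibitor Cdkn1b by 0.45 ± 0.07, while Btg1 fell by 0.35. Of 9 genes of the G1 list 3 were lower, Cdk6 by a log2 fold change of -1.12 ± 0.15 (adjusted p = 1.69e-11), Myc by -0.53 and Ccnd2 by -0.45. Of 7 other E2F family genes 2 were lower (E2f3 at -2.18 and E2f4 at -0.38), and of 28 replication and repair genes 2 (Uhrf1 at -1.02 and Dnmt1 at -0.32), a share near that of all genes. Of 27 other mitotic genes 3 were higher (Racgap1 at 1.31, Smc4 at 0.90 and Stmn1 at 0.78), also near it, and of 9 targets of p53, 4, with Bbc3 at 1.37.

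DESeq2 called none of Pcna, Kif23 and Mcm2 in naive cells. There edgeR had 9 of the 45 genes at an unadjusted p under 0.05, a count not set here against the share of all genes. The KO naive libraries also held more RNA of a list of handling-stress genes (summed level 4250 to 4654 CPM against 2308 to 2317 in WT), more of CD8 T cell genes (35.0 to 35.5 against 17.3 to 17.4 CPM) and less of erythroid genes (5.20 to 7.69 against 21.2 to 21.7 CPM), and differed in Xist. The part of these differences in the result was not tested.

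In Th1 cells of the first experiment, KO and WT carried nearly the same levels of cell cycle RNA. Of 48 genes 1 was called, against 3.66% of all genes tested. It was Ckap2l, which encodes a protein of the mitotic spindle (chr2:129268210-129297212, minus strand, GRCm38). Ckap2l had 54.6, 57.4 and 62.6 CPM in WT and 69.4, 71.1 and 77.0 in KO. All 3 KO libraries stood above all 3 WT libraries, at a log2 fold change of 0.32 ± 0.09 (adjusted p = 0.0441), but the call was lost when any one of 5 of the 6 libraries was left out and under another scaling. Mki67 had 900, 833 and 808 CPM in WT and 905, 807 and 960 in KO, so that the groups overlapped (0.07 ± 0.08, adjusted p = 0.736). Top2a had 1018, 998 and 975 CPM in WT and 1020, 1071 and 1197 in KO, where the groups stood just apart (0.14 ± 0.06, adjusted p = 0.309). Rrm2 had 126, 121 and 86.0 CPM in WT and 110, 99.5 and 103 in KO, inside the WT range.

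The sub-lists leaned apart by small amounts. Among S-phase genes 15 of 19 had a negative log2 fold change, with a median of -0.09, and among mitotic genes 24 of 29 a positive one, with a median of 0.09. The lowest value was that of Ccne1, at -0.31 ± 0.15 (adjusted p = 0.296). Bub1 at 0.24, Ccna2 at 0.18, Ccnb1 at 0.09, Cdk1 and Ccne2 at 0.07, E2f2 at 0.00, Foxm1 at -0.01, Mcm2 at -0.06, E2f1 at -0.10, Cdc6 and Pcna at -0.13, Mcm5 at -0.14 and Plk1 at -0.18 did not pass either.

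A few regulators around the cycle genes changed in these Th1 cells, where 2.16% of all genes tested were called higher and 1.51% lower. Mycn fell by 0.75 (adjusted p = 0.0373) and Myc fell by 0.33 (adjusted p = 0.0407) on the log2 scale, 2 of the 10 genes of the G1 list. Of 18 inhibitors and quiescence genes 3 were higher: the antiproliferative Btg2 at 0.40 and the atypical cyclins Ccng1 at 0.39 and Ccng2 at 0.38. Trp53inp1 (0.39), Ccng1 and Mdm2 (0.26) were higher among 12 targets of p53, and Ttk (0.33) among 40 other mitotic genes. The median log2 fold change was -0.03 over 8 other E2F family genes and -0.01 over 30 other replication and repair genes. A list of Th1 genes summed to 597 to 1043 CPM in WT and 238 to 413 in KO, and one of Th2 genes to 173 to 347 in WT and 380 to 768 in KO. Their part in these differences was not tested.

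In Th2 cells the KO values leaned upward and no gene was called. Of 48 genes 0 passed in edgeR and 0 in DESeq2, while 0.325% of all genes tested were called in edgeR. In edgeR 17 were at an unadjusted p under 0.05, a count not set here against the share of all genes. The median log2 fold change was 0.16 over the genes, with 46 of 48 positive, and -0.003 over all genes tested. In 20 of the genes all 3 KO libraries stood above all 3 WT libraries, a pattern held by 6.80% of all genes tested. Ccne2, a cyclin of the entry into S phase, was widest: 13.5, 14.4 and 14.9 CPM in WT and 18.6, 17.8 and 18.7 in KO, apart by 0.36 ± 0.13 (adjusted p = 0.314). Mki67 had 743, 787 and 671 CPM in WT and 750, 940 and 868 in KO (0.22 ± 0.08, adjusted p = 0.386), with the groups overlapping. Rrm2 had 72.9, 99.9 and 50.2 CPM in WT and 98.1, 99.4 and 88.4 in KO (0.36 ± 0.17, adjusted p = 0.524), with the groups overlapping. Ccne1 was lowest at -0.09, and the other anchor genes ran from E2f2 at 0.04 to E2f1 at 0.23. Lists of related genes had medians of 0.12 (30 other replication and repair genes), 0.14 (40 other mitotic genes) and 0.09 (10 genes of the G1 list), with no member called by edgeR.

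The KO effect was not shown to differ between Th1 and Th2 cells. The test of the difference called 0 of 48 genes in edgeR, and 0% of all genes tested, with 4 of the 48 and 1226 of all genes at an unadjusted p under 0.05. The median difference, Th1 minus Th2, was -0.21 over S-phase genes and -0.05 over mitotic genes, and 41 of 48 values were negative. The difference of the KO effect between naive and Th1 cells likewise called 0 of 48 in edgeR and 1 in DESeq2, beside 3.05% of all genes tested called in edgeR. In edgeR 7 of the 48 were at an unadjusted p under 0.05, a count not set here against the share of all genes.

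A part of the cell cycle genes, of S phase and of mitosis alike, was higher in WT Th1 than in WT Th2 cells. Of 48 genes 16 were higher in Th1 and 0 lower, 8 in each sub-list, while 13.7% of all genes tested were called higher. In 19 of the genes all 3 Th1 libraries stood above all 3 Th2 libraries, a pattern held by 19.2% of all genes tested. Pcna had 155, 154 and 139 CPM in Th1 and 95.1, 118 and 87.1 in Th2, higher by 0.58 ± 0.09 (adjusted p = 0.000111). Rrm2 had 126, 121 and 86.0 CPM in Th1 and 72.9, 99.9 and 50.2 in Th2, higher by 0.58 ± 0.17 (adjusted p = 0.0128). Ccne1, the cyclin of S-phase entry, had 35.6, 28.0 and 26.7 CPM in Th1 and 18.8, 25.6 and 17.8 in Th2, higher by 0.54 ± 0.15 (adjusted p = 0.012). The Pcna and Ccne1 groups did not overlap; those of Rrm2 did. Cdc45, a helicase partner, and Tyms, thymidylate synthase, followed at 0.41 each, and Mcm7 (0.35), Mcm6 (0.28) and Rrm1 (0.26) completed the S-phase genes called.

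Among the mitotic genes, Plk1, the polo-like kinase of mitotic entry, had 74.6, 63.7 and 53.5 CPM in Th1 and 45.1, 49.4 and 47.0 in Th2, higher by 0.44 ± 0.10 (adjusted p = 0.00352). Cenpf, a large kinetochore protein, had 285, 278 and 259 CPM in Th1 and 221, 231 and 200 in Th2, higher by 0.33 (adjusted p = 0.00225). Espl1, the separase that releases sister chromatids, rose by 0.37, Kif20a by 0.32 and Cenpe by 0.27, and Hmmr was the smallest called at 0.18. Mki67 at 0.21, Ccnb1 at 0.27, Ccne2 at 0.30, Cdc6 at 0.38, Top2a at 0.11, Ccna2 at 0.07, Cdk1 at 0.16, Foxm1 at 0.12, Mcm2 at 0.15, Mcm5 at 0.16 and E2f1 at 0.14 did not pass, and E2f2 was lowest at -0.13. The count of 16 fell to 6 without WT Th1 replicate 1 and to 9 without WT Th2 replicate 3.

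Other lists are read against the 13.7% of all genes called higher and the 15.8% called lower in this contrast. Of 30 replication and repair genes 11 were higher in Th1 and 1 lower, with Rfc3 (0.75), Mcm10 (0.53) and Cdt1 (0.43) among those higher. Myc was higher by 0.81 and Mycn by 1.74, and Cks1b by 0.45, while Cdk6 fell by 0.37. Of 18 inhibitors and quiescence genes 2 were higher and 8 lower, with Cdkn2a at 3.68 and Cdkn1c at -2.40. Of 12 targets of p53, 7 were lower and 0 higher. Of 40 other mitotic genes 5 were higher, among them Mad2l1 (0.33) and Aspm (0.32), a share near that of all genes. In the same libraries 3 of 4 B cell genes were lower in Th1 (summed level 3.98 to 8.39 CPM in Th1 and 8.01 to 23.0 in Th2), as were 1 of 2 plasma cell genes (18.6 to 30.2 against 49.5 to 58.9 CPM). Of 6 handling-stress genes 4 were lower and 1 higher, at summed levels that overlap (125 to 146 against 128 to 155 CPM). Their part in these differences was not tested.

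KO Th1 cells exceeded KO Th2 cells in fewer of the genes, and whether the genotypes differ in this is the difference tested above. Of 48 genes 3 were higher and 0 lower, a share no larger than the 8.01% of all genes tested called higher. They were Pcna at 0.37 ± 0.09 (adjusted p = 0.00815), Bub1 at 0.29 ± 0.08 (adjusted p = 0.0121) and Mcm6 at 0.22 (adjusted p = 0.0444). The lowest value was that of E2f1, at -0.19, and the other anchor genes ran from E2f2 at -0.17 to Ccne1 at 0.31. The count of 3 fell to 1 without KO Th1 replicate 2, KO Th2 replicate 2 or KO Th2 replicate 3.

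Untransduced KO Th1 cells, which belong to the second experiment, held less cell cycle RNA than their WT counterparts. Of 48 genes 12 were lower and 0 higher, while 0.632% of all genes tested were called lower. The median log2 fold change was -0.76 over the mitotic genes, -0.53 over the S-phase genes and -0.01 over all genes tested. In 44 of 48 genes both KO libraries stood below both WT libraries, a pattern held by 22.5% of all genes tested. The summed share of gene counts held by the 48 genes was 0.339% and 0.282% in WT and 0.203% and 0.197% in KO. The members called span nucleotide supply, licensing, chromosome condensation, spindle and kinetochore, and the mitotic transcription factor Foxm1.

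Rrm2 (chr12:24708241-24714146, plus strand, GRCm38), which supplies deoxynucleotides for replication, was among the 2 genes with the widest change. It had 70.8 and 77.9 CPM in WT and 28.3 and 24.8 in KO, lower by 2.77-fold (log2 fold change -1.47 ± 0.15, adjusted p = 0.000216). It was the only one of the 12 called under every alternative run. The other S-phase gene called was Cdc6, which loads the MCM helicase, with 30.5 and 34.7 CPM in WT and 20.2 and 15.8 in KO (-0.83 ± 0.18, adjusted p = 0.0376).

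Foxm1 and the cyclins Ccna2 and Ccnb1 fell. Foxm1 had 26.1 and 30.3 CPM in WT and 12.04 and 13.5 in KO (-1.17 ± 0.20, adjusted p = 0.00729). Ccna2, the cyclin of S phase and G2, had 44.4 and 52.7 CPM in WT and 21.3 and 24.3 in KO (-1.12 ± 0.17, adjusted p = 0.00414). Ccnb1 had 23.6 and 24.9 CPM in WT and 9.52 and 14.1 in KO (-1.11 ± 0.23, adjusted p = 0.028). In all 3 both KO libraries lay well below both WT libraries.

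The spindle and kinetochore genes called were Ckap2l, Kif11, Birc5, Cdca8 and Cenpf. Ckap2l had 25.7 and 17.98 CPM in WT and 6.998 and 9.03 in KO (-1.47 ± 0.27, adjusted p = 0.0145), from 16 to 25 reads in each KO library. Birc5 and Cdca8 encode survivin and borealin, subunits of the chromosomal passenger complex that holds Aurora B at the centromere. Birc5 had 28.0 and 22.7 CPM in WT and 8.68 and 13.5 in KO (-1.26 ± 0.23, adjusted p = 0.0138), and Cdca8 had 29.4 and 27.4 in WT and 16.8 and 15.8 in KO (-0.79 ± 0.18, adjusted p = 0.0473). Kif11, the motor that separates the spindle poles, had 60.4 and 61.4 CPM in WT and 30.5 and 32.7 in KO (-0.95 ± 0.15, adjusted p = 0.00523). Its replicates lay close together in both genotypes. Cenpf had 94.4 and 53.8 CPM in WT and 28.6 and 32.7 in KO (-1.28 ± 0.26, adjusted p = 0.0244), with a wide gap between its WT sets.

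Hmgb2, which bends DNA in chromatin, and Top2a completed the 12. Hmgb2 (chr8:57511907-57515999, plus strand, GRCm38) had 118 and 123 CPM in WT and 56.8 and 60.4 in KO (-1.04 ± 0.15, adjusted p = 0.00237). Top2a had 325 and 302 CPM in WT and 214 and 194 in KO (-0.62 ± 0.13, adjusted p = 0.0325). Genes that did not pass include Ccne2 at -0.96 (adjusted p = 0.102), E2f1 at -0.90 (adjusted p = 0.0544), Ccne1 at -0.74 (adjusted p = 0.085), Cdk1 at -0.68 (adjusted p = 0.0752), Mcm5 at -0.63 (adjusted p = 0.0595), Plk1 at -0.51 (adjusted p = 0.219), Pcna and E2f2 at -0.41, and Mcm2 at -0.33. Mcm6, another helicase subunit, had 247 and 297 CPM in WT and 293 and 248 in KO (-0.01, adjusted p = 0.993). Aurka, the kinase of the spindle poles, held the highest value, at 0.11 ± 0.24 (adjusted p = 0.888).

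**Figure D3:**
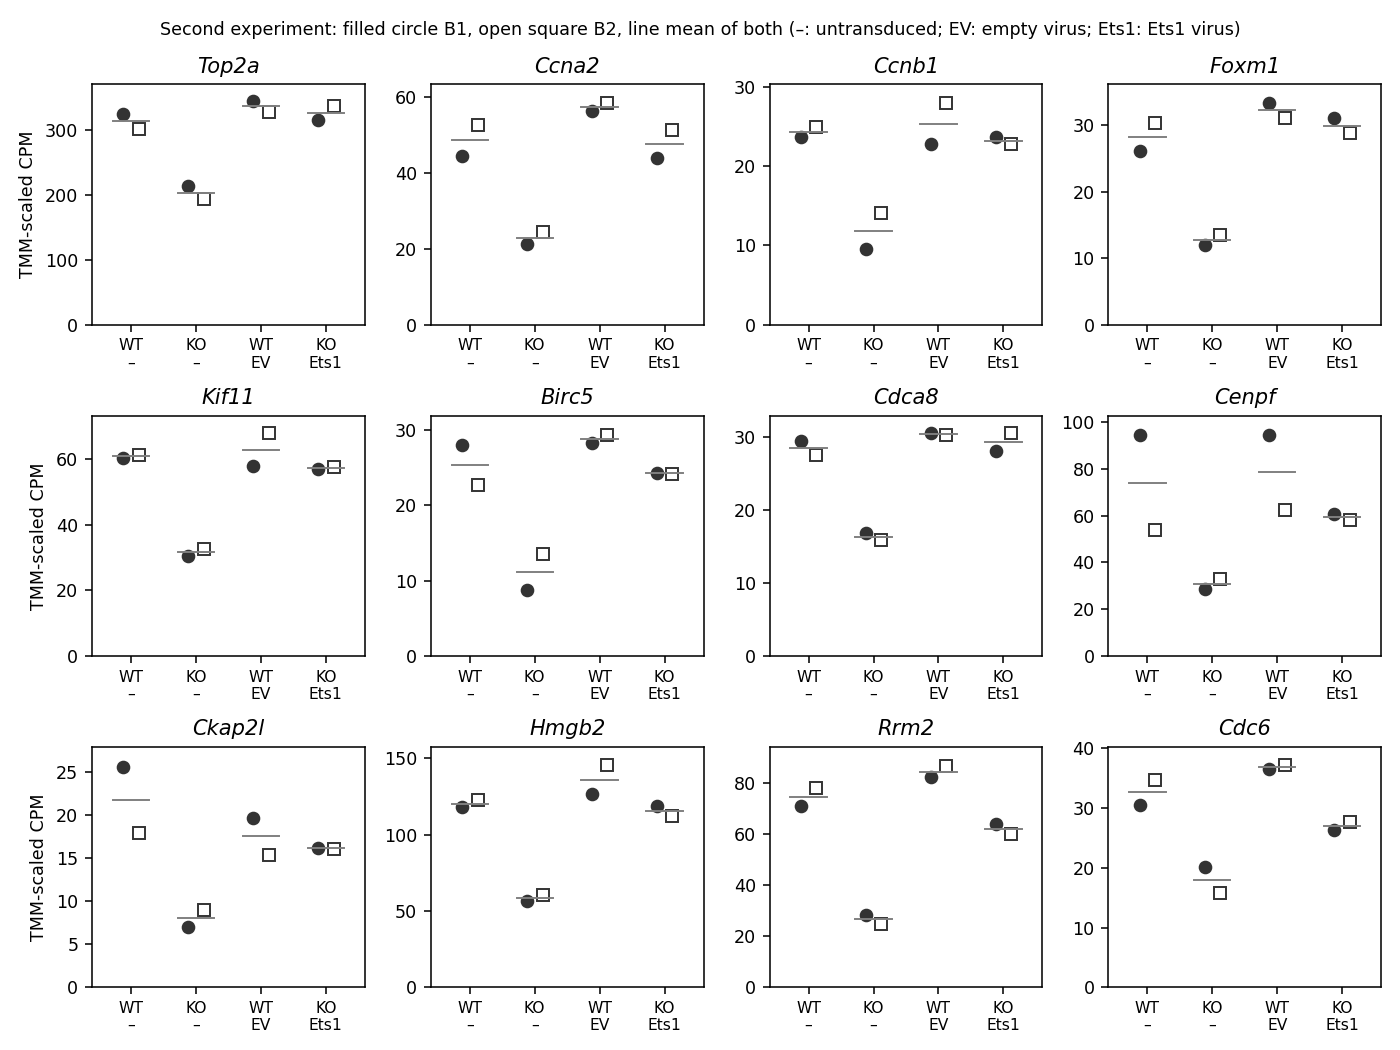
TMM-scaled CPM of the 12 genes called lower in untransduced KO Th1 cells, in the 4 labelled groups of the second experiment, with set B1 as filled circles, set B2 as open squares and lines at the mean. In each panel both untransduced KO points lie below both untransduced WT points, as for Rrm2 at 28.3 and 24.8 against 70.8 and 77.9.

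The call count rested on few libraries. It was 1 without KO set B1, when only Rrm2 was called, and 6 without KO set B2, 5 without WT set B1 and 8 without WT set B2. DESeq2 called 10, without Cdc6 and Cdca8. Within set B1 the score of all 48 genes on plain CPM was lower in KO by 0.87, and within set B2 by 0.62, so that the direction held in each set. On TMM-scaled CPM the score was 4.86 in KO and 5.57 in WT in set B1, and 4.91 and 5.61 in set B2. The summed level of a list of Th1 genes was also lower in KO (388 to 500 CPM against 1202 to 1358 in WT), while naive T cell genes stood at 810 to 812 CPM in KO and 637 to 865 in WT. Myeloid and erythroid genes were near 0 in both (at most 1.09 and 0.551 CPM).

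Related genes outside the 48 fell in the same libraries. Of 30 replication and repair genes 5 were lower and 0 higher (median -0.61): Brca1 at -1.25 (adjusted p = 0.00624), Prim1 at -1.14, Mcm10 at -1.02, Pola1 at -0.92 and Pole at -0.63. Of 40 other mitotic genes 3 were lower (median -0.66), the kinetochore genes Nuf2 (-1.07) and Spc25 (-1.01) and the spindle gene Dlgap5 (-1.05). Cdc25a, the phosphatase that activates CDK2, fell by 0.62 (adjusted p = 0.0443). Trp53inp1 rose by 0.78 (adjusted p = 0.0325), 1 of 12 targets of p53, where 0.605% of all genes tested were called higher. The median log2 fold change was 0.24 over 16 inhibitors and quiescence genes and -0.13 over 8 other E2F family genes.

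**Figure D4:**
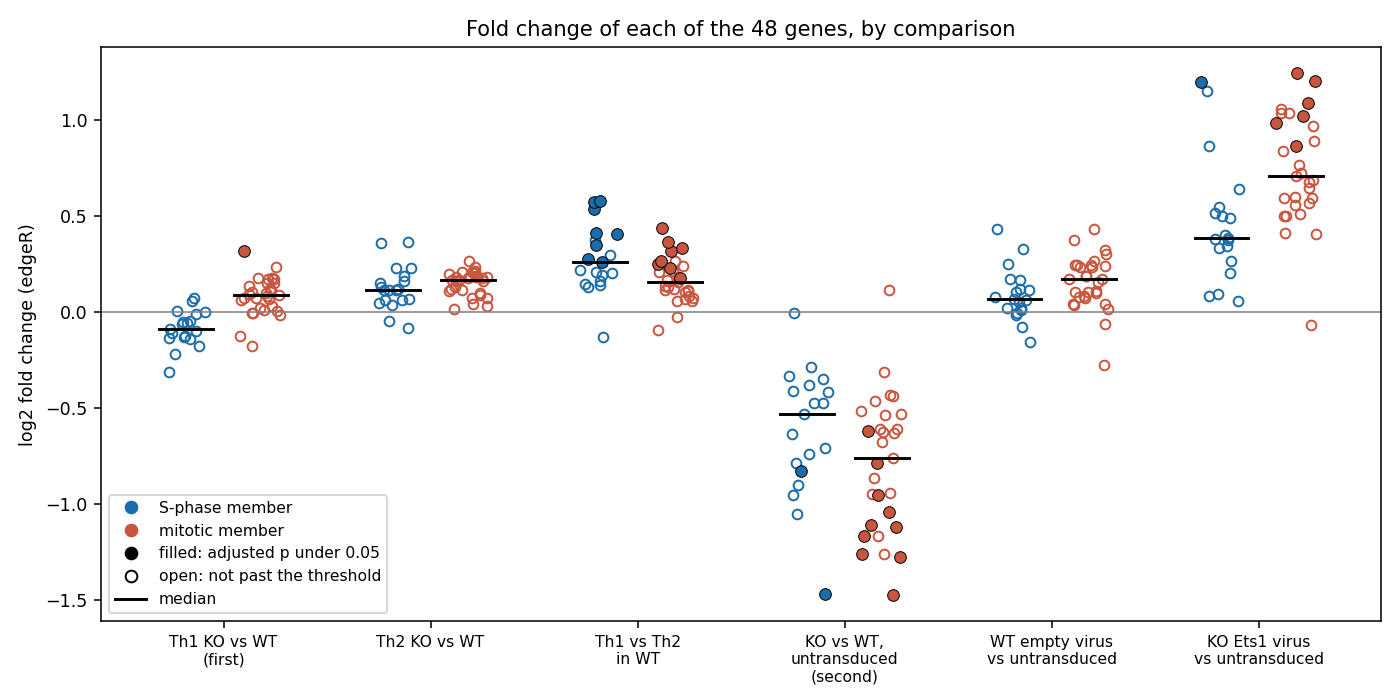
Log2 fold change of each of the 48 genes in 6 comparisons, with S-phase genes on the left and mitotic genes on the right of each pair, filled where the adjusted p was under 0.05, and a bar at the median. The values lie near 0 for KO against WT in the first experiment, and below 0 in 47 of 48 genes for untransduced KO against WT in the second.

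The KO effect on these genes differed between the Th1 experiments. In a test of the difference, second minus first, 13 of 48 genes were lower and 0 higher, while 0.268% of all genes tested were called lower. All 48 differences were negative, with a median of -0.71. The widest called was that of Ckap2l, at -1.80 ± 0.26 (adjusted p = 0.00457), which was higher in KO in the first experiment and lower in the second. Birc5 at -1.41 ± 0.25, Rrm2 at -1.39 ± 0.22, Ccna2 at -1.32 ± 0.18, Cenpf at -1.29 ± 0.25, Ccnb1 at -1.22 ± 0.25 and Foxm1 at -1.18 ± 0.24 also passed. Bub1, Ccnb2 and Aurkb, called in neither experiment alone, passed at -1.20, -0.99 and -0.94. Mki67, at -1.34 ± 0.33 (adjusted p = 0.114), did not pass. Of 40 other mitotic genes 5 were called lower (median -0.76), and of 30 replication and repair genes 3 (median -0.58). The count fell to 1 without untransduced KO set B1 to 6 without WT replicate 1 or 2 or KO replicate 3 of the first experiment, to 7 without its WT replicate 3 and to 5 without its KO replicate 2. Ets1 was at 561 to 622 plain CPM in KO and 748 to 851 in WT Th1 cells of the first experiment. In untransduced Th1 cells of the second it was at 214 to 239 in KO and 373 to 411 in WT. The experiments were separate cultures and differ in depth, in the meaning of a replicate, in Ets1 RNA and in the level of mitotic genes. These cannot be told apart from the genotype effect's own change.

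The empty virus left cell cycle RNA of WT Th1 cells near its untransduced level. Of 48 genes 0 were called in edgeR and in DESeq2, with 3 at an unadjusted p under 0.05. Of all genes tested 0% were called, with 268 at an unadjusted p under 0.05. The median was 0.11, and single values ran from Ckap2l at -0.27 to Kif20a at 0.43. Rrm2 had 82.0 and 86.3 CPM with the empty virus, and Ccna2 had 56.3 and 58.4. Top2a had 345 and 328 CPM, just above its untransduced WT libraries.

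KO Th1 cells with Ets1-RV held more cell cycle RNA than untransduced KO cells. Of 48 genes 7 were higher and 0 lower, while 0.126% of all genes tested were called higher. The median log2 fold change was 0.71 over mitotic genes, 0.39 over S-phase genes and -0.002 over all genes tested. In 44 of 48 genes both libraries with the virus stood above both untransduced libraries, a pattern held by 20.1% of all genes tested. The untransduced KO libraries are those of the comparison with WT above, so a low value in them moves both. Virus and Ets1 both differ between these groups, and no KO group with the empty virus was compared. The score of the 48 genes was 4.67 and 4.72 in untransduced KO libraries and 5.32 to 5.40 with Ets1-RV. It was 4.92 to 5.05, in between, in the libraries of no group that had 0 Gm27162 counts and an empty-vector label. The titles of those libraries read WT with the Ets1 virus, so they do not stand for a KO group with the empty virus. The part of the virus alone in the rise was not tested.

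Rrm2, at 28.3 and 24.8 CPM untransduced, had 63.6 and 60.0 with Ets1-RV, higher by 1.20 ± 0.15 (adjusted p = 0.0103). Foxm1 went from 12.04 and 13.5 CPM to 31.0 and 28.9, higher by 1.24 ± 0.19 (adjusted p = 0.013). Ccna2 went from 21.3 and 24.3 CPM to 44.0 and 51.4, higher by 1.09 ± 0.17 (adjusted p = 0.013). In these 3 genes the groups lay far apart against the gap between sets. Birc5, the survivin gene, had 24.3 and 24.2 CPM with the virus (1.20 ± 0.23, adjusted p = 0.0478), and the motor gene Kif11 57.0 and 57.5 (0.87 ± 0.15, adjusted p = 0.0271). Hmgb2 had 119 and 113 CPM (0.99 ± 0.15, adjusted p = 0.013). Hmmr, not called in the KO comparison, went from 19.3 and 25.4 CPM to 43.4 and 44.8 (1.02 ± 0.17, adjusted p = 0.0242).

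The other named genes did not pass. Top2a, at 316 and 338 CPM with the virus, came closest (0.68 ± 0.13, adjusted p = 0.0514), followed by Ccnb1 at 1.04 ± 0.23 (adjusted p = 0.0763). In edgeR with the set number as a block, Top2a was called (adjusted p = 0.0324). Ccne2 at 0.86, Mki67 at 0.77, Cdc6 at 0.55, Cdk1 and E2f2 at 0.51, Ccne1 at 0.49, Plk1 at 0.41, Mcm5 at 0.40, Pcna and E2f1 at 0.38 and Mcm2 at 0.08 had adjusted p-values from 0.24 to 0.913. Aurka was lowest at -0.07. Outside the 48, Stmn1, which destabilises microtubules, rose by 0.84 (adjusted p = 0.0401), 1 of 40 other mitotic genes. The count of 7 fell to 0 without untransduced KO set B1, to 2 without Ets1-RV set B1 and to 1 without Ets1-RV set B2.

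Set side by side with WT cells carrying the empty virus, KO cells with Ets1-RV leaned lower in these genes, on plain CPM unequally in the sets. The score of all 48 genes, Ets1-RV minus empty virus, differed on plain CPM by -0.39 within set B1 and by -0.03 within set B2. On TMM-scaled CPM the score in set B1 was 5.49 and 5.48 with Ets1-RV, against 5.73 and 5.74 with the empty virus. In set B2 it was 5.55 and 5.53 against 5.71 and 5.69, so that it was lower in both sets. Of 48 genes 0 were called in edgeR and in DESeq2, while 0.560% of all genes tested were called in edgeR. In edgeR 10 of the 48 were at an unadjusted p under 0.05, a count not set here against the share of all genes. The median was -0.20 and 45 of 48 values were negative, from Mki67 at -0.58 ± 0.43 (adjusted p = 0.727) to Hmmr at 0.15. Rrm2 stood at -0.44 ± 0.13 (adjusted p = 0.178), Cdc6 at -0.45, E2f1 at -0.44 and Top2a at -0.04. Genotype and virus both differ in this contrast. The step to Ets1-RV in KO cells was not shown to differ from the step to the empty virus in WT cells: the test of that difference called 0 of 48 genes in edgeR and in DESeq2, with 18 at an unadjusted p under 0.05, and 0% of all genes tested, with 528 at an unadjusted p under 0.05. The differences had a median of 0.46 and were positive in 46 of 48 genes, with Ckap2l at 1.33 (adjusted p = 0.913) and Rrm2 at 1.03 (adjusted p = 0.218).

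Mki67, the most used marker of dividing cells, had WT sets that stood far apart in the second experiment. It had 354 CPM in the untransduced WT library of set B1 and 115 in that of set B2, and 415 and 412 against 96.6 and 86.2 with the empty virus. Untransduced KO libraries had 94.5 and 87.1 CPM, and KO libraries with Ets1-RV had 152 to 166. The difference between untransduced KO and WT was -1.26 ± 0.46 (adjusted p = 0.215), and -0.42 (adjusted p = 0.807) without WT set B1. Cenpe, a kinetochore motor, had a mean of 74.9 CPM over the WT libraries of set B1 and 26.7 over those of set B2, and Cenpf had 104 and 54.2.

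These 3 genes have many exonic bases, 10061 (Mki67), 8620 (Cenpe) and 15433 (Cenpf). Rrm1 (11012), Top2a (9013) and Espl1 (8749) have more than Cenpe, and their WT means in set B1 were only 1.07, 1.27 and 1.15 times those in set B2. Over all genes with a mean of at least 15 CPM in the WT libraries of set B1, 56 were more than 2 times higher in set B1 than in set B2, with no overlap of libraries, and their median exonic length was 8304 bases against 5011.5 over 6446 genes. Mki67 and Cenpe are the 2 of the 48 genes among them. The part of transcript length or of RNA quality in the gap between the WT sets was not tested.

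**Figure D5:**
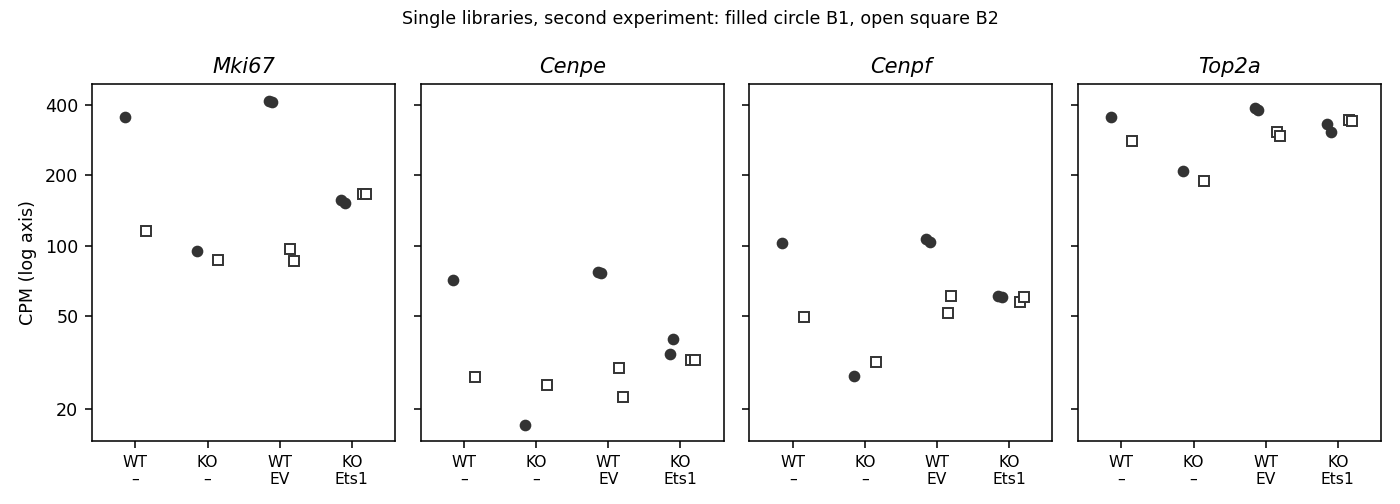
CPM of Mki67, Cenpe, Cenpf and Top2a in each single library of the 4 labelled groups of the second experiment, on a log axis, with set B1 filled and set B2 open. For Mki67 the WT libraries of set B1 lie at 354 to 415 CPM and those of set B2 at 86.2 to 115, while the sets lie close together in both KO groups.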

How the data were processed

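The authors deposited per-gene read counts for each library, from reads aligned with STAR 2.5.0a to GRCm38, per the submitters' processing notes. Column 4, the strand that held 93.3% to 95.2% of gene reads, was used. The 4 lines that name no gene, 63.6% to 76.0% of each library's total, were left out. Libraries are from a stranded total RNA kit and were sequenced on NextSeq or NovaSeq, per the labels' protocols. Nothing in the deposited files identifies molecules, so counts can include PCR copies.

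Counts were tested with edgeR 4.0.16 in R 4.3.3 (filterByExpr, TMM scaling, quasi-likelihood fits, two-sided), separately for naive, first and second libraries, and jointly for contrasts across them. Contrasts adjusted p over all genes tested, with a threshold of 0.05. Each standard error was worked back as the size of the log2 fold change over the square root of the test's F statistic. It is approximate, and may be too small for large changes from a few reads. Levels printed are TMM-scaled CPM unless scores, marker sums or single libraries are named, which are plain CPM. RLE scaling, no filter, DESeq2 1.42.0, a replicate block, single libraries as replicates and leaving out each replicate were tried; unstranded counts and the contrasts across experiments were added after the data were seen. Scripts were tested on simulated data.

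The genes and all lists were chosen with earlier results of these data known. Named were 16 anchor genes, every gene called where 12 or fewer were, otherwise the 5 with the widest change in each sub-list, and the highest and lowest gene per comparison.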

Additional observations from a re-analysis of the deposited data

Results flagged for a closer look

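Single libraries stood apart from the other 3 of their group in 7 of 102 checks of a member or score, where chance gives about 1 in 20. With the empty virus in WT, Ccne2 was at 24.1 CPM in 1 library of set B2, against 16.6 to 17.9 in the others. With Ets1-RV in KO, Cdca8 was at 24.0 CPM in 1 library of set B1 (others 30.4 to 31.7), and Plk1 was at 16.1 CPM in the same library (others 23.8 to 24.9). Bub1 was at 17.9 CPM in 1 library of set B2 (others 11.1 to 11.4), which also had the highest mitotic score, 5.27 (others 5.21 to 5.22). In the other library of set B1, Mcm6 was at 259 CPM (others 290 to 295) and Rrm1 at 135 (others 144 to 145).

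The KO effect in Th1 cells differed between the second and the first experiment by edgeR's test of the difference (log2, second minus first) for 13 genes. The values were Ckap2l -1.80, Birc5 -1.41, Rrm2 -1.39, Ccna2 -1.32, Cenpf -1.29, Ccnb1 -1.22, Bub1 -1.20, Foxm1 -1.18, Hmgb2 -1.08, Kif11 -1.07, Ccnb2 -0.99, Aurkb -0.94 and Top2a -0.77, with adjusted p from 0.00286 to 0.0487.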

How the results depend on the processing

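No result changed direction past its threshold under any alternative run. Of the counts of called genes and the scores under alternatives, 143 stayed within 1.5 times or the spread between replicates and 45 moved. Without a filter on low counts the number of the 48 genes called was 25 for untransduced KO against WT, 19 for Ets1-RV in KO, 21 for the difference between experiments, and 1 for naive KO, for Th2 KO, for the differences of the KO effect between Th1 and Th2 and between naive and Th1, for Ets1-RV against empty virus and for the difference between virus steps. With each library as a replicate it was 15 for Ets1-RV in KO, 3 for Ets1-RV against empty virus and 1 for the difference between virus steps. With DESeq2 it was 0 for naive KO and 1 for the difference between naive and Th1, where RLE scaling and unstranded counts, added after the data were seen, also gave 1. RLE scaling gave 0 for Th1 KO in the first experiment. The cause of these changes was not tested.

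Leaving out each replicate in turn gave 0 to 3 genes for naive KO, 0 to 1 for Th1 KO, 6 to 21 for WT Th1 against Th2, 1 to 3 for KO Th1 against Th2, 1 to 8 for untransduced KO, 0 to 6 for Ets1-RV in KO, 1 to 13 for the difference between experiments, 0 to 2 for the difference between naive and Th1, and 47 to 48 for WT Th1 against naive. An arm left with 1 library was assumed to vary like the others.

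With the replicate number as a block (replicate block) the counts were 3 for naive KO, 1 for Th1 KO, 15 for WT Th1 against Th2, 3 for KO Th1 against Th2, 13 for untransduced KO and 10 for Ets1-RV in KO. Deviations from group means correlated between same-numbered libraries at -0.088 to 0.215 in the first and 0.044 to 0.306 in the second experiment. The main tests did not pair libraries by these numbers, so a gap between sets B1 and B2 counts there as spread within groups. In the second experiment Xist was near 0 in set B1 and present in set B2 in both genotypes, which shows that the sets share this mark across groups but not that they share animals. With the block Top2a (adjusted p = 0.0324), Ccnb2 (0.0452) and Cenpf (0.0473) were also called for Ets1-RV in KO.

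Depth limits the low genes most: in the untransduced KO library of set B2, Rrm2 rests on 44 reads, Birc5 on 24 and Ckap2l on 16.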

Other observations

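The 8 transduced libraries whose title and treatment label name opposite viruses were in no group and no test, and have these values. In the 4 titled as KO with the empty virus and labelled with the Ets1 virus, the score of the 48 genes, the mean of log2(CPM + 0.5), was 5.34, 5.36, 5.55 and 5.56, with S-phase scores of 5.64, 5.65, 5.76 and 5.84 and mitotic scores of 5.14, 5.16, 5.42 and 5.37. Ets1 was at 594, 565, 582 and 632 CPM in them, and Gm27162 had 5, 9, 17 and 13 counts. In the 4 titled as WT with the Ets1 virus and labelled with the empty vector, the score was 4.95, 4.92, 5.04 and 5.05, with S-phase scores of 5.32, 5.39, 5.35 and 5.37 and mitotic scores of 4.71, 4.61, 4.83 and 4.85. Ets1 was at 191, 189, 269 and 252 CPM in them, and Gm27162 had 0 counts in all 4. Read by Gm27162, the former 4 match the WT groups and the latter 4 the KO groups, opposite to the genotype in their titles. Rrm2 was at 92.9, 89.0, 100 and 90.2 CPM in the former 4, and at 39.4, 54.8, 48.3 and 37.1 CPM in the latter 4.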
